A study of Mus musculus with 16 samples.

Results

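The genes described here are 9 mouse genes that make, spend or carry glutamine and the amino acids it feeds. They are Glud1, Got1, Got2, Gpt2, Glul, Asns, Slc1a5, Slc38a1 and Slc38a2, taken by name from 21938 protein-coding genes of GENCODE release M21. For each one, the peaks that overlapped the gene or the 5000 bp on either side of it were read from 16 ATAC-seq peak lists. ATAC-seq uses a transposase to place adapters in open chromatin, so a peak marks a stretch of DNA with more fragments than its surroundings.

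The libraries came from cultured T cells, per the study's methods CD8+ OT-I cells with a transgenic T cell receptor for an OVA peptide, of TPdh+/+ mice (wild type, WT) or TPdh-/- mice, with 4 libraries for each genotype as effector cells (TE) and 4 as memory cells (TM). TPdh-/- mice carried the floxed Pdha1 allele (B6.129P2-Pdha1tm1Ptl/J) and a Cd4-driven Cre transgene, which acts in cells of the T lineage, and Pdha1 encodes a subunit of the pyruvate dehydrogenase complex. The effector cells had been activated with OVA peptide for 3 days and held in IL-2 for 4 days, and the memory cells were activated alike and held in IL-15 for 4 days. The mice were of both sexes and 8 to 12 weeks old, and whether WT mice carried Cre is not given in the sources used here. The sources also do not say that the 4 libraries of a group came from separate mice, so the p-values measure the spread between libraries, which may be technical. A peak list cannot show the Pdha1 deletion, and the genotypes rest on the labels. In such bulk libraries, fewer cells with an open site and less opening per cell cannot be told apart.

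Glutamine enters T cells through transporters of the plasma membrane, is turned into glutamate, and is passed to the tricarboxylic acid cycle as alpha-ketoglutarate. Glutamate dehydrogenase and the transaminases carry out that last step, the transaminases by moving the amino group onto pyruvate or oxaloacetate. Activated T cells are known for a high demand for glutamine, and cells that cannot send pyruvate into the cycle can draw on it instead.

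The libraries differed widely in how much they held. The lists ran from 2290 peaks (WT TE replicate 3) to 86637 peaks (TPdh-/- TM replicate 2), and background coverage, the fragments expected at any base of the genome as solved from the deposited values, ran from 0.173 to 1.55. WT TE libraries had 2290 to 19234 peaks at a coverage of 0.636 to 1.55, and WT TM libraries had 13304 to 54892 peaks at 0.354 to 0.572. TPdh-/- TE libraries had 32906 to 78635 peaks at 0.173 to 0.419, and TPdh-/- TM libraries had 60189 to 86637 peaks at 0.186 to 0.261. In TE and in TM, every TPdh-/- list was longer than every WT list, and over both cell types the genotypes overlapped. The share of protein-coding genes with a peak ran from 11.3% to 67.3%. The part of list length in the differences between groups was not tested.

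Sequence at the sites that recurred is shown first, because these are the places where peaks of several libraries fell together. The RefSeq promoter table for GRCm38.p6 matched 7 of the 9 genes, and the 250 bases before the start are given on the gene's strand for the pair whose start peaks recurred most. The Got1 promoter (chr19:43524606-43524855, minus strand) held the summits of 11 peaks from 11 libraries, and the Glul promoter (chr1:153899679-153899928, plus strand) held 9 summits from 9 libraries. Capitals mark the letters CCAAT, the C/EBP-ATF composite TGATGNAA and the SP1 box GGGCGG, each searched on both strands.
Got1 promoter: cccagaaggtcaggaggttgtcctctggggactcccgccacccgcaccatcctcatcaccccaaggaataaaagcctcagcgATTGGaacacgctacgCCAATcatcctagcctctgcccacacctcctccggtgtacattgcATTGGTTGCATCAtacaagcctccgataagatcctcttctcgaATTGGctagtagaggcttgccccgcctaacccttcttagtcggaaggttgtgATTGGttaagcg
Glul promoter: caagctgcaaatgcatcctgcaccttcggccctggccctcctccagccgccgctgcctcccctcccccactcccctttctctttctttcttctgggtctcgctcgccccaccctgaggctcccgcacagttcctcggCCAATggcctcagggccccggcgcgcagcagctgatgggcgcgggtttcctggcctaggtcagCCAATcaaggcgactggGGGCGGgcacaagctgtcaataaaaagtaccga

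The Got1 promoter held CCAAT at 5 places, from 168 bases to 8 bases before the 5′ end, and 0.213% of the 32851 promoters in the table had 5 or more. One of these matches ended where a TGATGNAA match began, 102 bases before the 5′ end. That composite, the kind of letters that ATF4 and C/EBP factors bind in amino acid response genes, was found in 3.45% of all promoters. Among the 7 matched genes it occurred in Got1 and Asns, and in Asns it lay from base 22 to base 29 after the 5′ end of the GENCODE gene. The Glul promoter held CCAAT at 2 places, which 10.1% of promoters matched or exceeded, and GGGCGG at 1. CCAAT was found in 33.8% and GGGCGG in 32.7% of all promoters. The other letters searched were the E-box CACGTG, the NRF1 site GCATGCGC, the ETS site CCGGAAGT, the AP-1 site TGANTCA and the cyclic AMP element TGACGTCA. In the 7 promoters only the NRF1 site was found among these, in Glud1, against 2.26% of all promoters.

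Both other sequences lie inside introns, and they are shown because they differ in kind. Around the median summit of the Slc38a2 peaks, 150 bases of the first intron (chr15:96698950-96699099, minus strand) held 3 summits from 3 libraries. They were 77.3% G or C, against a mean of 45.2% in equal windows at all 645567 summits. GGGCGG lay at 3 places in the Slc38a2 window. Of the equal windows 5.87% held it at least once, and the share with 3 is not given here. Around the median summit of a recurring Gpt2 peak, 150 bases (chr8:85499695-85499844, plus strand) were a run of TG repeats, and 100% of the bases were masked as repeats.
Slc38a2 first intron: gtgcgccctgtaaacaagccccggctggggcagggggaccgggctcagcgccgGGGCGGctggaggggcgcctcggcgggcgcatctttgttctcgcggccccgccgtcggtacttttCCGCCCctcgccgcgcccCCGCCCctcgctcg
Gpt2 intron: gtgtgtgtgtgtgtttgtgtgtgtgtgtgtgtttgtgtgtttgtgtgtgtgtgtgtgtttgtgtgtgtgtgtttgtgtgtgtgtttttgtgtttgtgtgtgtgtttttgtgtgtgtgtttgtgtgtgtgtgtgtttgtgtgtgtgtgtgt

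Across the 9 genes there were 142 peaks at 81 separate sites, and 62 of these sites (76.5%) were seen in a single library. Only 5 sites recurred in 5 or more of the 16 libraries, 1 each at Got1, Glul, Got2, Slc38a2 and Gpt2. Peaks were small, with a median of 6 fragments at the summit and a range of 3 to 26. Fold enrichment, the ratio of summit pileup to local background with 1 added to both, ran from 2.97 to 10.02 around a median of 4.53, and the median of all peaks of the series was 4.10. The 72 peaks within 1000 bp of an annotated start had a median fold of 5.04, against 4.18 for the other 70. Of the start peaks 8 had their summit in a repeat (11.1%), of the others 25 (35.7%), and of all peaks of the series 35.7%. Median GC content of the 150 bases around the summit was 61.3% near starts and 48.7% elsewhere.

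**Figure D1:**
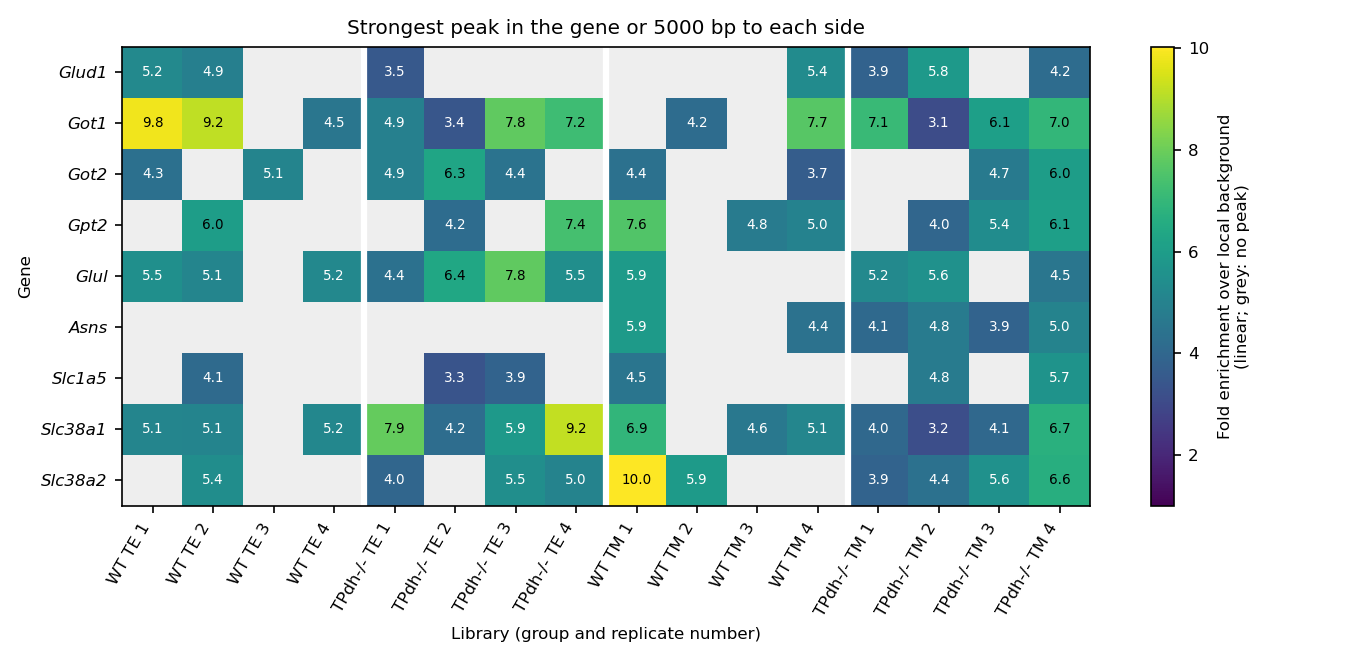
Fold enrichment (linear colour scale) of the strongest peak in each gene or 5000 bp to each side, with 1 column per library and 1 line per gene. Grey squares had no peak. Got1 and Slc38a1 were filled in 13 and 14 of the 16 libraries, Asns was empty in all 8 TE libraries, and the WT TE replicate 3 column held a single value, at Got2.

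A peak was present in 85 of the 144 pairs of gene and library (59.0%), against 46.5% of pairs over all protein-coding genes. Near a start the share was 65 of 144 (45.1%), against 20.9% over all genes. The most widely held gene was Slc38a1 with 14 of 16 libraries, then Got1 with 13, Glul with 11, Slc38a2 with 10, Got2 and Gpt2 with 9 each, Glud1 with 7, and Asns and Slc1a5 with 6 each. The median over all genes was 7. Genes next to each other in this order differed by at most 2 libraries. When only start peaks were counted the order was led by Got1 with 11 libraries and Glul with 10, and 4.55% and 7.19% of all genes had as many or more. Slc38a1 spans 71496 bp, and of the 2953 genes within 1.5 times its length 13.9% were held by at least as many libraries.

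**Figure D2:**
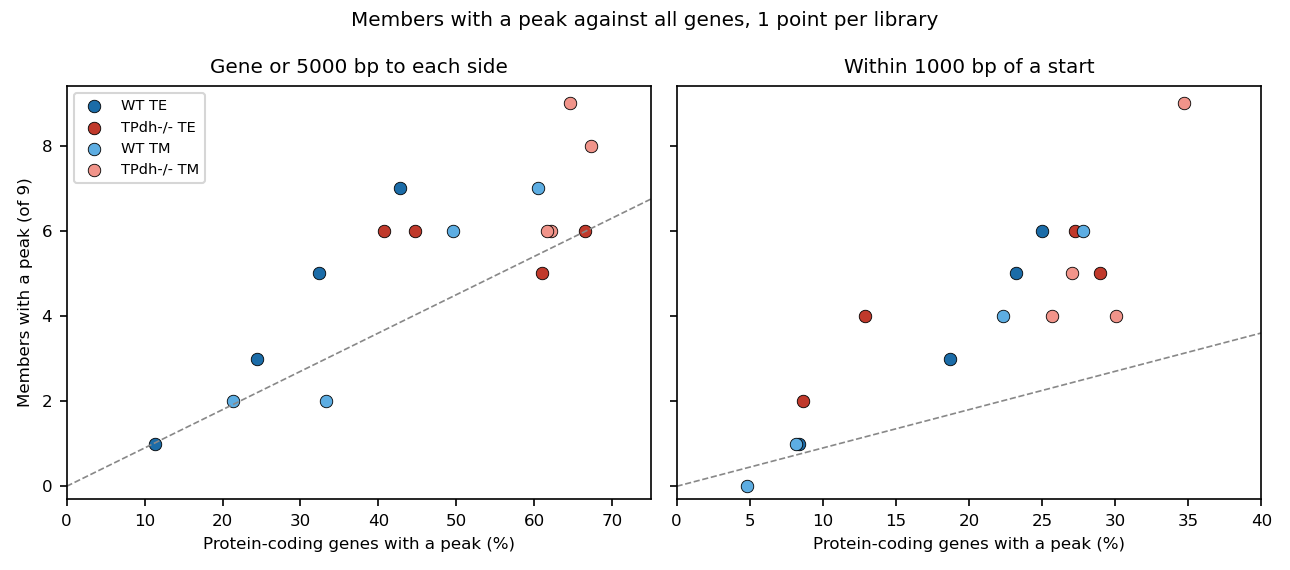
Number of the 9 genes with a peak in each library against the percent of all protein-coding genes with a peak, for the gene with 5000 bp to each side (left) and for 1000 bp around a start (right), with the 16 libraries coloured by group. The dashed line marks 9 genes times the percent on the x axis. In the right panel every library with at least 1 start peak lay above the line, and WT TM replicate 3 lay at 0.

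Got1 (chr19:43499752-43524605, minus strand of GRCm38), the cytosolic aspartate aminotransferase, had the site seen in most libraries. Its start peak, with summits 115 to 8 bases before the 5′ end and inside the sequence printed above, was held by 11 libraries. In WT TE libraries its fold enrichment was 9.84, 9.16 and 4.53 in replicates 1, 2 and 4, and replicate 3 had no peak. In TPdh-/- TE it was 4.93, 7.81 and 7.24 in replicates 1, 3 and 4, and replicate 2 had none. In WT TM replicate 4 alone held the site, at 5.45, and in TPdh-/- TM the 4 libraries held it at 4.29, 2.97, 6.10 and 6.96. The WT TE values reached higher than those of the other groups, and the ranges of WT TE, TPdh-/- TE and TPdh-/- TM overlapped. The −log10 q-value of 17.3 in WT TE replicate 1, on 26 fragments, was the highest of all 142 peaks. The other 10 Got1 peaks lay apart from this site, 9 of them in introns and 1 upstream, and none recurred in more than 2 libraries.

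Got2 (chr8:95864134-95888547, minus strand of GRCm38), the mitochondrial aspartate aminotransferase that works with Got1 in the malate-aspartate shuttle, had its recurring site just inside the gene. Summits lay 284 to 809 bases after the 5′ end, mostly in the exon of a non-coding transcript, in 8 libraries, which were 2 of each group. In TE cells the fold enrichment was 4.33 and 5.08 in WT and 4.93 and 3.79 in TPdh-/- libraries. In TM cells it was 4.37 and 3.67 in WT and 4.71 and 6.03 in TPdh-/- libraries. The genotypes overlapped in TE, and in TM 2 values on each side are too few to tell them apart. In the shortest list, that of WT TE replicate 3, this site was the only peak at any of the 9 genes.

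Gpt2 (chr8:85492576-85527560, plus strand of GRCm38), the mitochondrial alanine aminotransferase, had its recurring peaks at a start site and at the repeat. The start site, with summits from 126 bases before to 143 bases after the 5′ end, was held by WT TE replicate 2 at a fold of 6.01, WT TM replicates 1 and 4 at 7.57 and 5.02, and TPdh-/- TM replicate 4 at 6.11. The intron site at the TG repeat was held by 5 libraries, with summits 7150 to 7261 bases after the 5′ end. Its fold was 4.13 in WT TE replicate 2, 7.37 in TPdh-/- TE replicate 4, 5.91 and 4.77 in WT TM replicates 1 and 3, and 3.96 in TPdh-/- TM replicate 2. Every group held it at least once, and in 3 of the 5 libraries it was the strongest peak of the gene. Gpt2 had 16 peaks in all, and those outside these sites were seen in 1 library each. They came from TPdh-/- libraries, whose lists were longer than those of WT in TE and in TM. Among them was a peak 508 bases before the 5′ end in TPdh-/- TE replicate 4, at a fold of 3.46.

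Glud1 (chr14:34310727-34345265, plus strand of GRCm38), glutamate dehydrogenase, was held by 7 libraries and by 3 of them at its main start, with a fold of 5.23 in WT TE replicate 1, 5.37 in WT TM replicate 4 and 5.83 in TPdh-/- TM replicate 2. The start of the neighbouring gene Shld2 shares this window, so these peaks cannot be given to either gene. The other 7 Glud1 peaks were seen in 1 library each.

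Glul (chr1:153899944-153909723, plus strand of GRCm38), glutamine synthetase, which makes glutamine from glutamate and ammonia, had the second most recurrent site, at its start. In WT TE the fold was 5.50, 5.10 and 5.23 in replicates 1, 2 and 4, and in TPdh-/- TE it was 4.35, 5.47 and 5.46 in replicates 1, 3 and 4. WT TM held it in replicate 1 at 5.91, and TPdh-/- TM in replicates 1, 2 and 4 at 5.25, 5.58 and 4.53. The values ran from 4.35 to 5.91, the single WT TM value was the highest, and the other 3 groups overlapped. A transcript of Teddm2 on the opposite strand and the microRNA gene Mir8114 overlap the same site. A second site, 11811 to 11926 bases after the 5′ end and past the gene, was held by TPdh-/- TE replicates 2 and 3 at 6.38 and 7.81, and by no other library. Both of its summits lay in a repeat.

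Asns (chr6:7675169-7693254, minus strand of GRCm38), asparagine synthetase, which uses glutamine as its nitrogen donor, had no peak in any of the 8 TE libraries. WT TM held it in replicate 1 at a fold of 5.90 and in replicate 4 at 4.399, and TPdh-/- TM in all 4 replicates at 4.10, 4.76, 3.88 and 5.02. These peaks rested on 4 to 7 fragments and were spread along the gene. The 7 peaks fell on 6 sites, and 1 intron site, 11815 to 11841 bases after the 5′ end, was shared by WT TM replicate 1 and TPdh-/- TM replicate 2. No summit lay in the 250 bases before the RefSeq start, and the summits nearest to the 5′ end were 116 bases after it in TPdh-/- TM replicate 3 and 425 bases before it in replicate 4.

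Among the transporters, Slc1a5 at chr7:16781340-16798274 on the plus strand of GRCm38 (ASCT2, an exchanger of neutral amino acids that imports glutamine) was held by 6 libraries. The fold was 4.12 in WT TE replicate 2, 3.34 and 3.87 in TPdh-/- TE replicates 2 and 3, 4.52 in WT TM replicate 1, and 4.76 and 5.65 in TPdh-/- TM replicates 2 and 4. The only recurring site, 10691 to 10918 bases after the 5′ end in an intron, was seen in 3 libraries, all of them TPdh-/-. These peaks rested on 3 to 5 fragments, and in TE and in TM every TPdh-/- list was longer than every WT list. The part of list length in this count was not tested.

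Slc38a1 at chr15:96571418-96642913 on the minus strand of GRCm38 (SNAT1, a sodium-coupled importer of glutamine) carried 33 peaks, the most of the set. Its strongest peak had a fold of 5.09, 5.07 and 5.17 in WT TE replicates 1, 2 and 4, with none in replicate 3. In TPdh-/- TE it was 7.87, 4.22, 5.90 and 9.18. WT TM replicates 1, 3 and 4 had 6.94, 4.61 and 5.13, and TPdh-/- TM had 4.04, 3.17, 4.06 and 6.74. These peaks came from different places along the gene. A site 360 to 144 bases before the 5′ end and one 498 to 738 bases after it were held by 4 libraries each, and no other site of the gene by more than 3.

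Slc38a2 at chr15:96687392-96699730 on the minus strand of GRCm38 (SNAT2, an importer of the same family whose level is known to follow amino acid supply) had a recurring site that ran from its start into the first intron. The fold there was 5.42 in WT TE replicate 2, 5.47 and 5.02 in TPdh-/- TE replicates 3 and 4, 5.17 in WT TM replicate 2, and 3.89, 4.38, 5.58 and 6.64 in TPdh-/- TM, where the strongest of 2 peaks is given for replicate 4. That made 6 of 8 TPdh-/- libraries and 2 of 8 WT libraries, with overlapping values. The highest fold of the whole set, 10.02 on 17 fragments, also belonged to Slc38a2, in WT TM replicate 1, at a site 3884 bases before the 5′ end that no other library held.

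**Figure D3:**
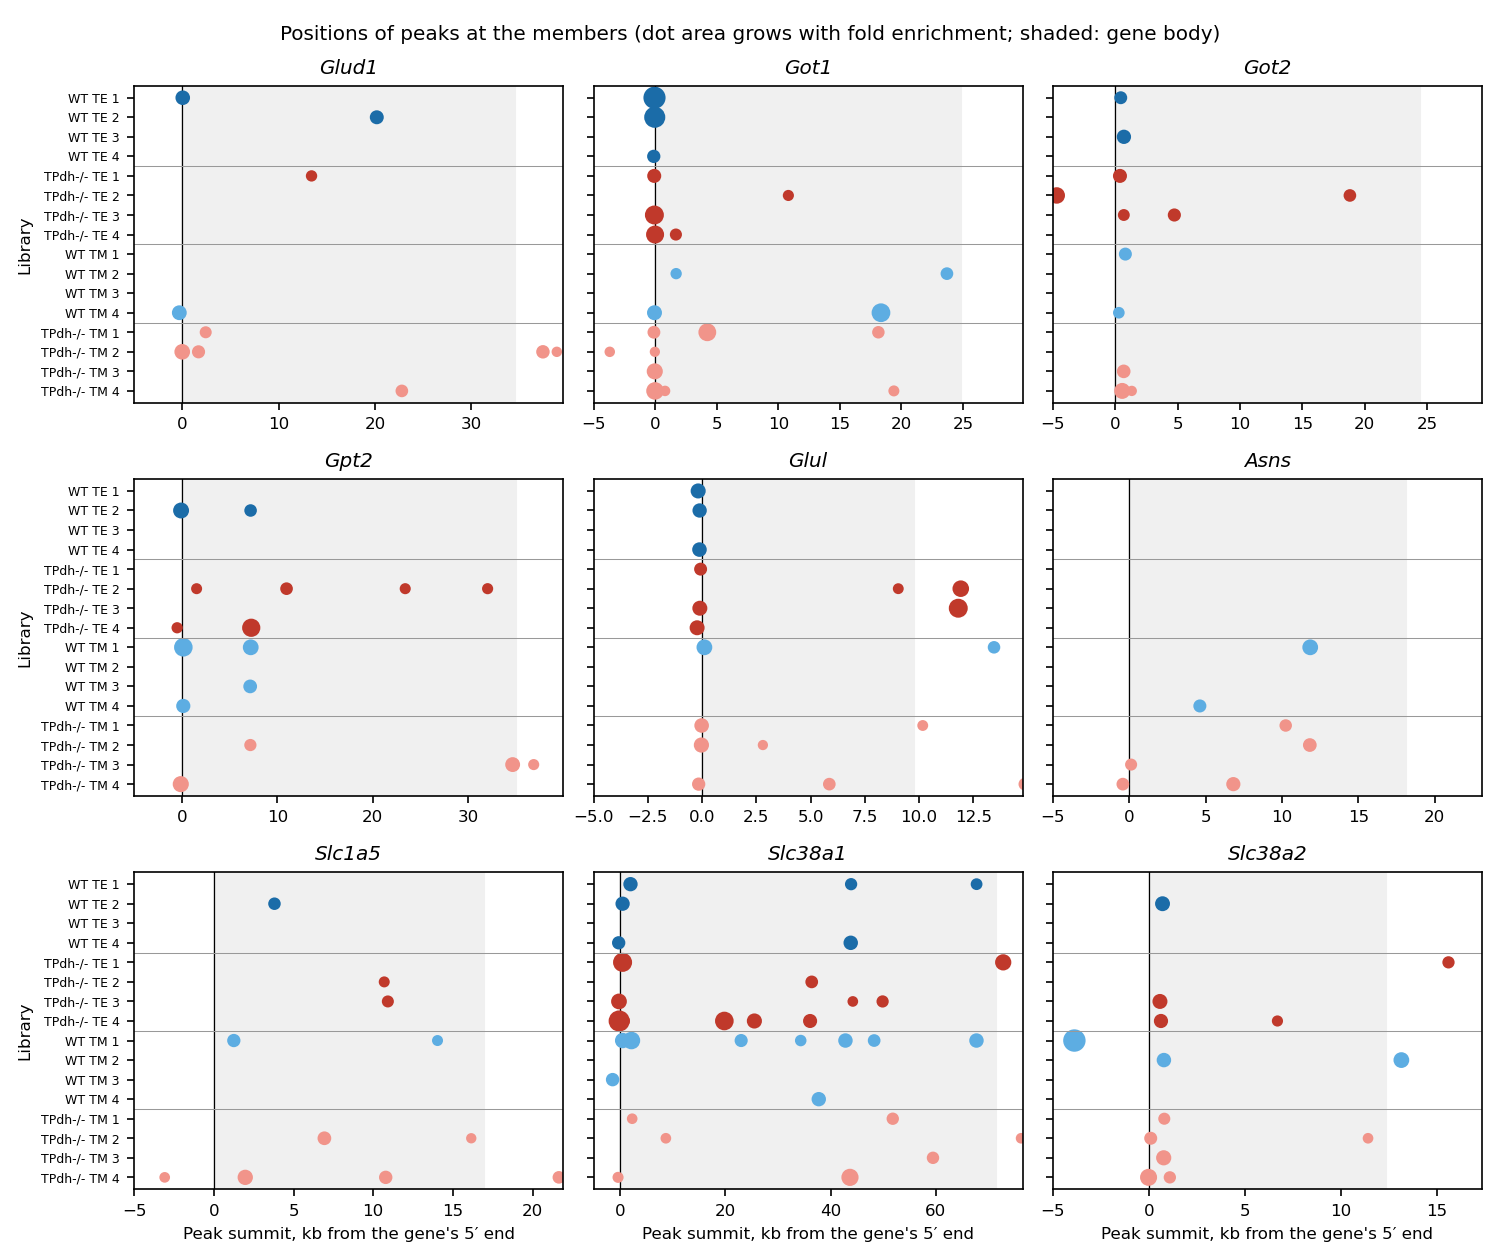
Summit positions of the 142 peaks in kb from each gene's 5′ end (x axis) in each library (y axis), 1 panel per gene, with dot area growing with fold enrichment, colours for the 4 groups and shading for the gene body. Dots line up at the start of Got1 in 11 libraries and of Glul in 10, and are scattered in Asns, Slc1a5 and Slc38a1.

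The first question was whether the genes differed between TPdh-/- and WT in TM. Presence was compared by Fisher's exact test, and strength, the percentile of the strongest peak's −log10 q-value among the peaks of its own library with 0 for no peak, by an exact permutation test, both two-sided with 4 against 4 libraries. Of the 9 genes 7 were held by more TPdh-/- TM libraries and 2 by equal numbers, and the median difference was 50 percentage points of libraries, against 25 over all genes, of which 62.0% were held by more. No member had an unadjusted p under 0.05 for presence, where 1.15% of all genes did, or for strength, where 4.85% did. Got1 had the widest gap in strength, 74.1 against 32.7, with p = 0.257 in the exact permutation test.

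In TE, 7 of the 9 genes were held by more TPdh-/- libraries, Glud1 by fewer and Asns by none of either, with a median difference of 25 points, the same as over all genes. No member passed for presence, against 3.18% of all genes. For strength 1 of the 9 members had an unadjusted p under 0.05, against 7.93% of all genes, and it was Slc38a1. Its percentiles were 66.6, 66.4, 0 and 61.1 in WT TE and 98.1, 68.1, 89.5 and 98.5 in TPdh-/- TE. These percentiles did not overlap, but they are ranks within lists of 2290 to 19234 peaks in WT TE and 32906 to 78635 in TPdh-/- TE, and the fold enrichments did overlap, since 4.22 in TPdh-/- TE replicate 2 was below the 3 WT TE peaks. By log2 fold enrichment the exact permutation p was 0.200. The mean percentiles were 48.5 ± 32.4 and 88.6 ± 14.3 (SD, n = 4), and the exact permutation p of 0.0286 is the smallest that 4 against 4 libraries can give. After Benjamini-Hochberg adjustment over all 21938 genes it was 0.360. Without WT TE replicate 3, which had no peak there and the shortest list, the difference in means was 23.9, and it was 44.2 to 46.1 without any other WT TE library, each with an exact permutation p of 0.0571. With the 1000 bp around a start alone it was 26.6 (exact permutation p = 0.400).

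Memory and effector cells were compared within each genotype. In WT, 3 genes were held by more TM libraries (Gpt2, Asns and Slc38a2), 3 by fewer (Glud1, Got1 and Glul) and 3 by equal numbers, and no member passed, against 1.21% of all genes for presence and 3.3% for strength. In TPdh-/-, 1 member passed for presence, against 0.479% of all genes, and 1 for strength, against 2.92%, and both were Asns. The strength call restates the presence call, because a library without a peak has a strength of 0. It was held by 4 TPdh-/- TM and 0 TPdh-/- TE libraries, with p = 0.0286 in Fisher's exact test and an adjusted p of 1 over all genes. Its percentiles were 58.8, 80.1, 42.4 and 75.5 in TPdh-/- TM, a mean of 64.2 ± 17.2 (SD, n = 4), and 0 in every TPdh-/- TE library, with p = 0.0286 in the exact permutation test and 0.978 after adjustment. TPdh-/- TM lists held 60189 to 86637 peaks and TPdh-/- TE lists 32906 to 78635. When each list was limited to its 2290 strongest peaks, no library held Asns. No gene of any kind had an adjusted p under 0.05 in these comparisons by either test. The smallest possible p of 0.0286 can pass that adjustment only if most genes reach it, so the adjustment could not pick out single genes.

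**Figure D4:**
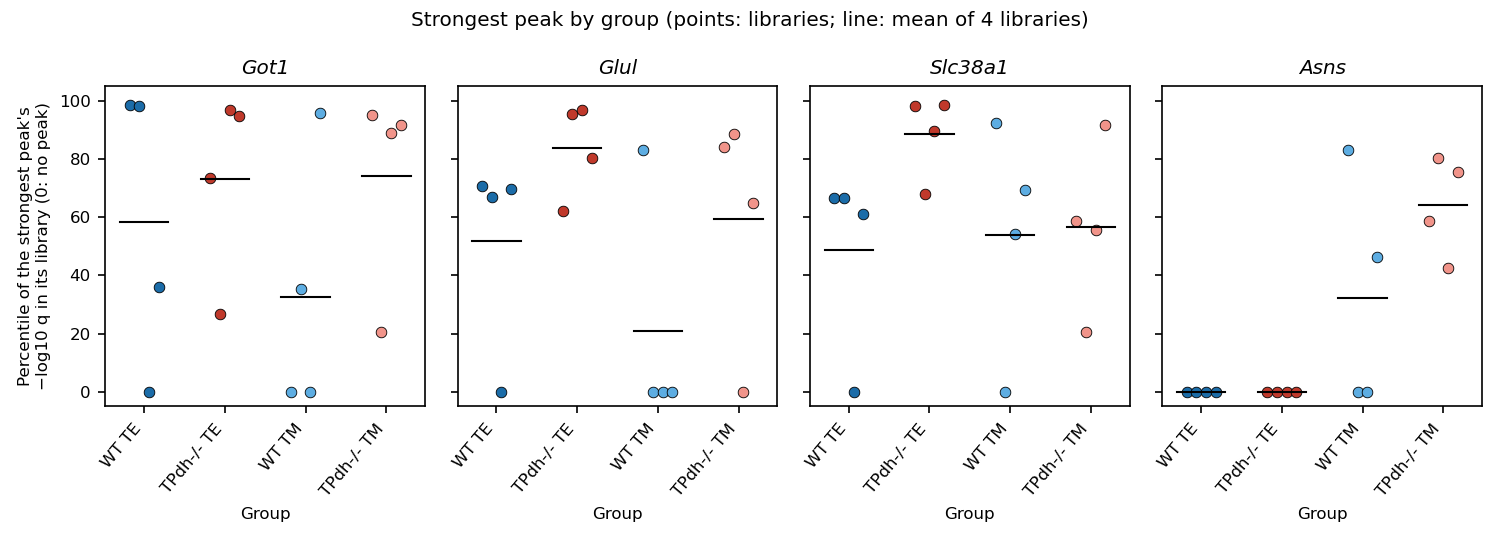
Percentile of the strongest peak's −log10 q-value in its library (y axis, 0 for no peak) for Got1, Glul, Slc38a1 and Asns in the 4 groups, with 1 point per library and a line at the mean of 4. The TPdh-/- TE points of Slc38a1 (68.1 to 98.5) lay above all WT TE points (0 to 66.6) on this scale of ranks, though their fold enrichments overlapped, and Asns was at 0 in both TE groups.

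Over both cell types, each of the 9 genes was held by more TPdh-/- than WT libraries, with a median difference of 25 points, and so were 77.5% of all genes, whose median was the same 25. None of the 9 had an unadjusted p under 0.05 when genotype was permuted within cell type, against 8.31% of all genes. The largest gap was at Slc38a2, held by 7 of 8 TPdh-/- and 3 of 8 WT libraries, with an exact permutation p of 0.120 and an adjusted p of 0.656. In lists cut to 2290 peaks, 11 pairs of gene and library remained (7.64%, against 7.04% over all genes), and they came from Got1, Got2, Glul, Slc38a1 and Slc38a2. Of these 11, 7 were in WT and 4 in TPdh-/- libraries, all 4 of TPdh-/- TE. The same split over all genes is not given here. Of the 101 genes with an unadjusted p under 0.05 in these cut lists, 82 were held by fewer TPdh-/- libraries, so the split is not a result about the members. The genotype effects in TM and TE were compared for presence and strength of each gene by exact permutation, 18 tests in all, and the smallest adjusted p was 0.801.

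The other genes of the pathway were counted from a list of 39. Over both cell types 33 were held by more TPdh-/- libraries, 2 by fewer and 4 by equal numbers, with a median of 25 points. At an unadjusted p under 0.05 there were 3 of 39 higher in TPdh-/- and 0 lower, a share no larger than the 8.31% of all genes, so they are named as the rule gives them and not as a result about the list. Gclc, the catalytic subunit that joins glutamate to cysteine on the way to glutathione, was held by 8 of 8 TPdh-/- and 1 of 8 WT libraries (exact permutation p = 0.00204, adjusted p = 0.462). Slc25a13, a mitochondrial carrier that exchanges aspartate for glutamate, had 8 against 3 (exact permutation p = 0.0143), and Ctps2, a CTP synthase that takes nitrogen from glutamine, had 8 against 3 (exact permutation p = 0.0306). Near a start these differences were smaller or turned: in TPdh-/- and WT libraries Gclc was held by 5 and 1, Slc25a13 by 3 and 0, and Ctps2, which spans 131271 bp, by 1 and 2. Within TE, Gclc and Slc25a13 were held by all 4 TPdh-/- and no WT libraries (Fisher's exact p = 0.0286 each, adjusted p = 0.890). These were 2 of 39, beside 3.18% of all genes, and in equal-sized lists 137 of the 148 genes called in TE were held by fewer TPdh-/- libraries. None of the 39 passed in the other 3 comparisons.

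T cell markers were themselves unevenly held, by 4 libraries for Cd3g, 6 for Cd3e and Cd8a, 8 for Cd3d and Lck, and 11 for Cd8b1. Markers of other cells ran from 2 libraries for Lyz2 to 10 for Cd4 and 11 for Itgam, so over the gene and its flanks the ranges of both lists overlapped. Within 1000 bp of a start the 6 T cell markers were held by 2 (Cd3e) to 8 libraries (Cd8b1). There 6 of the 8 markers of other cells were at 0, and Ms4a1 and Itgam were held by 2 each, so the lists met at 2 libraries. Of the 8 markers of other cells, 6 were held over the wider window by more TPdh-/- TM than TPdh-/- TE libraries. So were 4 of the 6 T cell markers and 44.0% of all genes. Near a start, Ms4a1 was held by 0 TPdh-/- TM and 1 TPdh-/- TE libraries, and Itgam by 1 of each. The part of other cells in the Asns result was not tested.

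For the 5 genes with a start peak in at least 8 libraries, the protein-coding genes whose start-peak percentile followed theirs most closely over the 16 libraries were found by Pearson's r, as a description. All these values share the libraries and their depth. Got1 was closest to Gatad2a (r = 0.924) and Ube2s (0.923), Glul to Oser1 (0.928) and Cdca3 (0.915), and Got2 to Inafm1 (0.846) and Chek1 (0.844). Slc38a1 was closest to Chmp3 (0.918) and Brd7 (0.907), and Slc38a2 to Pfkp (0.925) and Lonp2 (0.910). Ube2s had a start peak in the same 11 libraries as Got1.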

How the data were processed

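Members and lists were chosen with earlier results of these data known. The authors, by their methods, cut adapters from read pairs with Trimmomatic, aligned them to GRCm38 with BWA MEM 0.7.17, dropped reads with secondary or split alignments or in blacklisted regions, and called peaks per library with MACS2 2.2.7.1 on fragments. A control and an offset for the transposase cut are not given in the sources used here. The deposited values of a peak are its fold enrichment (a ratio to local background) and the −log10 of its p-value and q-value. No coverage or reads were analysed here, and values were not scaled between libraries.

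Summit pileup and background were solved from fold and p-value, which was tested on simulated peaks. Presence needed an overlap of at least 1 bp with the gene and 5000 bp to each side. Fisher's exact test and exact permutation of 70 arrangements (4900 within cell type) were run on all genes with scipy 1.17.1 and adjusted by Benjamini-Hochberg. The text names all members, other pathway genes with an unadjusted p under 0.05 for presence, genes described as background, and the 2 closest genes by r. Markers and overlapping genes were named outside that rule. Alternatives were start windows, summits inside the window, stricter q and fold, equal lists of 2290 peaks, fold percentiles, log2 fold, leaving out libraries, and a replicate block. Intervals were not computed because read totals were not analysed here.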

Additional observations from a re-analysis of the deposited data

Results flagged for a closer look

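There were 3 values that stood far from the rest of their group of 4 among 19 groups examined, and for continuous values the threshold used flags about 1 group in 20 by chance, a rate that does not carry over to small tied counts. Got1 in TPdh-/- TM had a strongest-peak percentile of 20.7 in replicate 2, against 89.0 to 95.2 in the other replicates, and that library had the longest list of all. In TPdh-/- TE, 5 of the 9 genes had a peak in replicate 4 and 6 in each of the others. In lists of 2290 peaks, WT TE replicate 4 held 2 of the 9 genes and the other WT TE libraries 1 each. In both of these counts the library that stood apart differed from the others by a single gene.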

How the results depend on the processing

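Counts of members with an unadjusted p under 0.05 changed as follows. For presence in TPdh-/- TM against TPdh-/- TE, the count of 1 (Asns) became 0 with a −log10 q of at least 5, a fold of at least 5, equal-sized lists or the replicate block, and for strength it became 0 under the same 4. Leaving out a library there gave 1 to 2, the 2 without TPdh-/- TM replicate 3, where Glud1 joined at 60.1. For strength in TPdh-/- TE against WT TE, the count of 1 (Slc38a1) became 0 with the start window, either stricter threshold, equal-sized lists, fold percentiles, log2 fold or the replicate block, and leaving out a library gave 0 to 1, with 1 only without TPdh-/- TE replicate 2, while its difference ran from 23.9 to 46.9 and was 43.1 with fold percentiles. For genotype over both cell types leaving out a library gave 0 to 1, with 1 (Slc38a2) without WT TE replicate 2, TPdh-/- TE replicate 2, WT TM replicate 1 or WT TM replicate 2, and Slc38a2 turned to −12.5 points in equal-sized lists. The causes were not tested.

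No pairing by replicate number was seen: same-number libraries correlated at −0.082 to 0.194, above 0.1 in 1 of 16 pairs, and 3 of 16 libraries matched their own number best. Whether same-number libraries shared mice or a culture cannot be told from these values. With the block, the exact permutation p of a gene in 4 pairs cannot go below 0.125, so a lost call there says nothing about the size of a difference. Over all genes, 697 passed for presence in TE (686 higher in TPdh-/-, 11 lower), against 62 with the start window (16 and 46) and 148 in equal-sized lists (11 and 137). In WT TM against WT TE, 266 (253 and 13) became 60 (2 and 58) and 149 (14 and 135). Genotype over both cell types went from 1818 higher and 5 lower to 181 and 16, then 19 and 82. In TM (250 and 3) it kept its direction at 133 and 0, then 7 and 1, and TPdh-/- TM against TPdh-/- TE (94 and 11) at 97 and 6, then 8 and 2. Peaks of 3 to 26 fragments limit what a missing peak shows.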
